A study of Homo sapiens with 28 samples.

Results

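The genes described here build, coat and break down the triglyceride stores of the cell. They were chosen by name as 39 genes of glycerolipid synthesis, the lipid droplet and lipolysis, among 26443 genes with values in all 28 RNA-seq libraries of the series. By role, 16 belong to synthesis, 11 to the droplet coat and 12 to lipolysis. All libraries came from LNCaP, an androgen-responsive human prostate cancer cell line. In the knockdown series, cells carried a control hairpin (shCtrl) or 1 hairpin against the homeobox transcription factor HOXB13 (shHOXB13) in the pGIPZ vector. Each background was given alone or with 1 pLKO.1 hairpin against p300 (shp300), 1 against CBP (shCBP), or both (shp300/CBP), which made 8 groups of 2 libraries. In the drug series, shCtrl and shHOXB13 cells received the vehicle DMSO or 250 nM CCS1477, an inhibitor of the p300/CBP bromodomain, for 48 h, which made 4 groups of 3 libraries. p300 and CBP are related histone acetyltransferases that act as transcriptional coactivators.

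Triglycerides are assembled on a glycerol backbone. Glycerol-3-phosphate acyltransferases such as GPAM add the first fatty acid, the AGPAT enzymes add the next and give phosphatidic acid, the lipins remove its phosphate to give diacylglycerol, and DGAT1 and DGAT2 attach the last fatty acid. The product is stored in droplets that bud from the endoplasmic reticulum with the help of seipin (BSCL2) and FITM2 and that are coated by perilipins. Adipose triglyceride lipase (PNPLA2) begins breakdown with its co-activator ABHD5, hormone-sensitive lipase (LIPE) acts on diacylglycerol, and monoacylglycerol lipase (MGLL) releases the last fatty acid. Prostate cancer cells such as LNCaP are known for active lipid synthesis under androgen receptor control and for visible lipid droplets.

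The values were deposited as FPKM, fragments scaled to gene length and to the mapped reads of the library, so they are levels per length. The gene lengths behind the values, recovered from them, differ from the exon bases of GENCODE 44 for some members: AGPAT1 was divided by 16576 bases against 3593, FITM2 by 958 against 4628 and DGAT2 by 2454 against 7904. Levels set side by side between genes rest on these lengths, while changes within a well-expressed gene hardly do. For members near 0.1 FPKM, the lengths also bear on the change, through the 0.1 FPKM added, and on the filter given below. Changes are given as log2 fold changes of FPKM + 0.1, with the standard error (SE) and Benjamini-Hochberg adjusted p over all genes tested, from 1 limma fit per series. A gene was tested where it reached 0.1 FPKM in at least 2 knockdown or 3 drug libraries, and was called where adjusted p was under 0.05. Of the members, 29 of 17678 genes tested in the knockdown series and 28 of 15907 in the drug series passed that filter, and 10 passed neither. In bulk RNA, fewer cells of a type and less RNA per cell cannot be told apart. Libraries held 7458934 to 16338528 mapped reads in the knockdown series and 8085754 to 14427238 in the drug series. HOXB13 itself averaged 86.5 FPKM in shCtrl and 11.3 in shHOXB13, and 142 and 30.4 in the DMSO groups. EP300, which encodes p300, averaged 11.0 FPKM in shCtrl, 5.75 in shHOXB13 and 4.32 in shHOXB13+shp300/CBP, and the last step was not called (adjusted p = 0.073). CREBBP, which encodes CBP, averaged 4.93 FPKM in shHOXB13 and 4.10 in shHOXB13+shp300/CBP, which was also not called (adjusted p = 0.23). Of the 3 targeted genes 1 was called lower in that comparison (16.2% of all genes), and it was HOXB13 itself. All 3 were called lower with the joint knockdown in shCtrl cells (9.4% of all genes). All 3 were also called lower in shHOXB13 DMSO than in shCtrl DMSO (42.4% of all genes). The part of this fall of HOXB13 in the results of the joint knockdown was not tested. With single hairpins in shHOXB13 cells, shp300 brought EP300 to 3.28 FPKM (adjusted p = 0.011), while shCBP brought CREBBP to 3.14 FPKM without a call (adjusted p = 0.064). These values are of RNA only. The study examined the knockdown of p300, CBP and HOXB13 protein in LNCaP cells by western blot. All 8 luminal prostate markers had a median above 1 FPKM in each series and none of 6 adipocyte markers did. Of 5 macrophage markers 1 did in each series. Of 6 fibroblast and endothelial markers 1 did in the knockdown and 2 in the drug series. The pair of shHOXB13+shp300/CBP libraries stood apart: 6.70% of 11843 genes differed more than 2-fold between them, against 1.18% to 2.99% in the other knockdown pairs. Values of both are described at the end, and comparisons that use replicate 1 are given with and without it. In the drug series, replicate 1 of shCtrl DMSO and of shCtrl CCS1477 also differed from their groups, at 3.88% to 4.22% of genes, against 1.46% and 1.74% for replicates 2 and 3. Same-numbered shCtrl libraries of that series deviated from their group means together (correlations 0.665, 0.394 and 0.373 over genes). The share of reads in genes also moved with the knockdown groups, from 74.3% and 72.2% in shCtrl to 68.8% and 66.3% in shHOXB13 and 61.5% and 52.6% in shHOXB13+shp300/CBP. FPKM was scaled to all mapped reads, and the part of this share in the results was not tested beyond the rescaled values given beside them.

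LNCaP cells expressed a restricted part of the program. PNPLA2 had the highest median level of all members, 105 FPKM over the 28 libraries, followed by the serine hydrolase ABHD12 at 68.8 FPKM. Among synthesis genes, AGPAT3 (33.2 FPKM), AGPAT2 (27.0 FPKM), DGAT1 (24.0 FPKM) and DGAT2 (20.8 FPKM) had the highest deposited values, and neighbours in this order had ranges that overlapped. This order holds for the deposited lengths only, and AGPAT1, at a median of 5.15 FPKM, was divided by a length several times its exon bases. LPIN1 followed at 14.4 FPKM, with SOAT1, which makes cholesteryl esters, at 9.31 FPKM. PLIN3 was the perilipin with the most RNA, at a median of 22.3 FPKM, while PLIN2 never exceeded 0.554 FPKM and PLIN4 reached 1.00 FPKM at most. The 10 members that passed neither filter were MOGAT1, SOAT2, PLIN5, CIDEA, CIDEB, CIDEC, G0S2, LPL, FABP5 and CD36. They include the adipocyte droplet proteins of the CIDE family and genes of fatty acid uptake. CIDEB and FABP5 were listed at 0 in all 28 libraries, and every exon base of CIDEB lies inside exons of other listed genes, so its value carries no information under counting without strand. LIPE held at most 15 reads in any library and the acyltransferase GPAT2 at most 7. Part of the exon bases of AGPAT1 (30.5%), BSCL2 (27.5%) and LPIN3 (13.3%) also lies inside other genes, and reads from the overlapping genes cannot be told apart there.

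**Figure D1:**
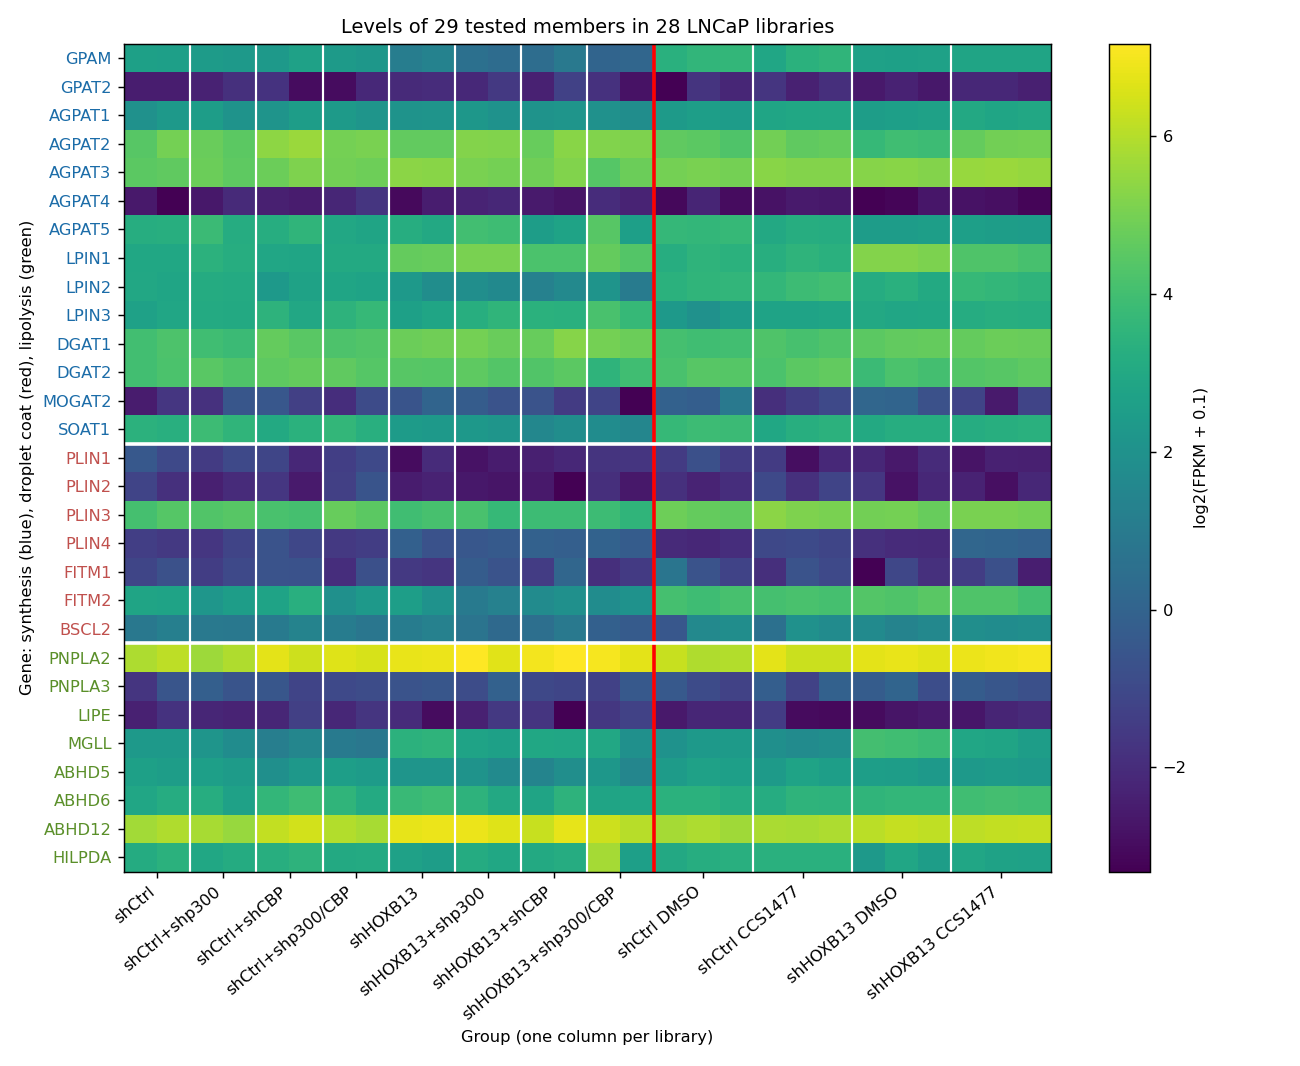
Heat map of log2(FPKM + 0.1) for the 29 tested members (rows, by role) in all 28 libraries (columns, by group), with a red line between the knockdown and the drug series. PNPLA2 and ABHD12 are bright in every library, LPIN1 and MGLL brighten in the shHOXB13 columns, GPAM and SOAT1 darken there, and HILPDA stands out in a single column.

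HOXB13 knockdown moved members in both directions. In the knockdown series 8 of the 29 tested members rose, where 8.45% of all genes tested did, and 4 fell, where 30.8% of all genes did. In the DMSO groups of the drug series 9 of 28 rose (15.2% of all genes) and 8 fell (42.4% of all genes). The lipin LPIN1, the acyltransferases AGPAT3 and DGAT1, and the hydrolases PNPLA2, MGLL, ABHD6 and ABHD12 rose in both series, while GPAM, LPIN2, SOAT1 and PLIN1 fell in both. Of the 28 members tested in both, 11 were called in both in the same direction and 0 in opposite directions. That is 91.7% of the 12 members called in the knockdown series and 64.7% of the 17 called in the drug series. Over the 15751 genes tested in both series, the corresponding shares were 79% and 59%, with 87 genes called in opposite directions. Tested members had a median log2 fold change of -0.05 with knockdown libraries and -0.01 with DMSO libraries, and all genes had -0.33 in either case. With median-of-ratios scaling, which brings the median of all genes to 0.00 and -0.01, the split was 10 higher and 3 lower, and 11 higher and 3 lower. Here and below, shares of all genes belong to the main fit. Counts under another scaling or with libraries left out stand without such a share and cannot be set against it. With values rescaled to a common total, the drug series had 10 higher and 5 lower. Without both shCtrl libraries numbered 1 it had 10 higher and 8 lower, with DGAT2 (-0.38, adjusted p = 0.0091) and PLIN3 (0.23, adjusted p = 0.028) called and FITM1 (-1.18, adjusted p = 0.13) not. Markers of luminal prostate cells moved too, with 3 of 8 higher and 4 of 8 lower in the knockdown series, and their part in these results was not tested.

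**Figure D2:**
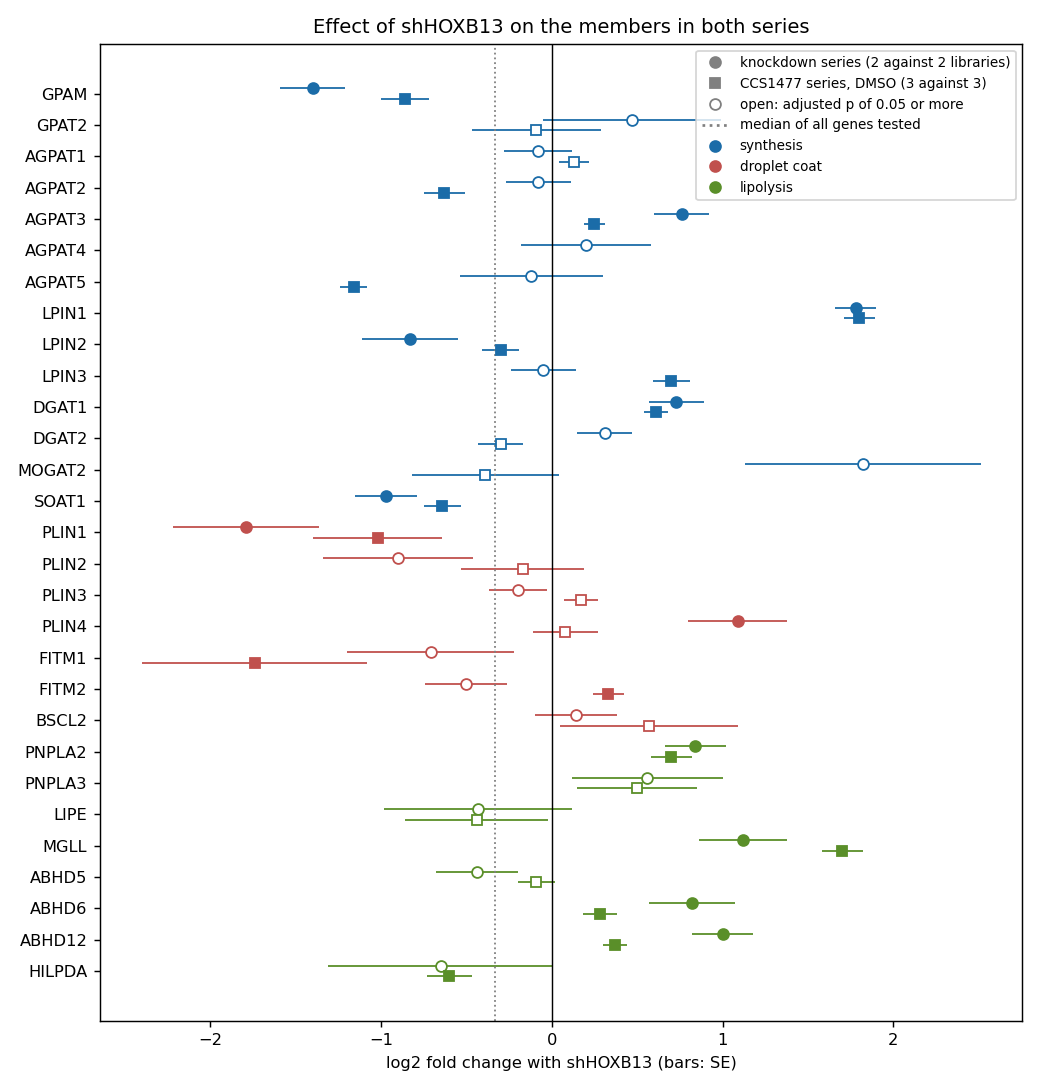
Log2 fold change of each tested member in shHOXB13 against shCtrl cells, with SE bars; circles are the knockdown series, squares the DMSO groups of the drug series, and open symbols had an adjusted p of 0.05 or more. The dotted line marks the median of all genes at -0.33; LPIN1 and MGLL lie farthest to the right among the abundant members and GPAM, PLIN1 and AGPAT5 lie to the left.

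The lipins, which make diacylglycerol, included the synthesis gene with the largest called rise. LPIN1 (chromosome 2, 11677595 to 11827409 on GRCh38, plus strand) measured 7.5 and 7.47 FPKM in the 2 shCtrl libraries and 25.7 and 26.4 FPKM in the 2 shHOXB13 libraries. In the DMSO groups it measured 9.30, 11.3 and 10.3 FPKM in shCtrl and 37.4, 37.0 and 34.0 FPKM in shHOXB13. Every shHOXB13 library thus lay far above every shCtrl library of its series, and the log2 fold changes were 1.78 (SE 0.12, limma adjusted p = 1.1e-06) and 1.80 (SE 0.09, adjusted p = 1.7e-08). LPIN2 went the other way, from 7.80 and 7.07 FPKM to 4.93 and 3.46 FPKM in the knockdown series. With DMSO, LPIN2 measured 10.2, 11.5 and 11.8 FPKM in shCtrl and 8.98, 9.95 and 8.29 FPKM in shHOXB13. Its groups did not overlap in either series, with log2 fold changes of -0.83 (SE 0.28, adjusted p = 0.036) and -0.30 (SE 0.11, adjusted p = 0.034). Both LPIN2 calls were weak: in the knockdown series the call was lost under median-of-ratios scaling (-0.43, adjusted p = 0.20), a common total (-0.64, adjusted p = 0.053) and no filter (adjusted p = 0.05), and without shCtrl replicate 1 (-0.76, adjusted p = 0.16), shCtrl replicate 2 (-0.90, adjusted p = 0.084) or shHOXB13 replicate 2 (-0.58, adjusted p = 0.24). In the drug series it was lost without shCtrl DMSO replicate 2 (adjusted p = 0.088) or 3 (adjusted p = 0.10) or shHOXB13 DMSO replicate 1 (adjusted p = 0.076) or 3 (adjusted p = 0.12), and under median-of-ratios scaling it turned to 0.05. LPIN3 rose in the drug series alone, from 4.82, 3.88 and 5.33 FPKM to 7.93, 7.26 and 7.61 FPKM (log2 fold change 0.70, SE 0.11, adjusted p = 0.00014). In the knockdown series LPIN3 averaged 6.80 FPKM in shCtrl and 6.59 FPKM in shHOXB13; the difference between the series was not tested.

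GPAM and DGAT1, acyltransferases at opposite ends of the chain, were called in opposite directions. GPAM, the mitochondrial enzyme of the first acylation (chromosome 10, 112149865 to 112215377, minus strand), measured 6.09 and 6.05 FPKM in shCtrl and 2.09 and 2.39 FPKM in shHOXB13. With DMSO it measured 10.1, 11.9 and 12.2 FPKM against 6.24, 6.11 and 6.31 FPKM. All shHOXB13 libraries were lower than all shCtrl libraries, with log2 fold changes of -1.40 (SE 0.19, adjusted p = 0.00017) and -0.86 (SE 0.14, adjusted p = 0.00028). DGAT1, which attaches the last fatty acid, rose from 15.9 and 18.7 FPKM to 27.9 and 29.3 FPKM (log2 fold change 0.73, SE 0.16, adjusted p = 0.0036). In the drug series DGAT1 rose from 16.7, 15.6 and 16 FPKM to 22.8, 25.3 and 25.7 FPKM (log2 fold change 0.61, SE 0.07, adjusted p = 2.3e-05). DGAT2, the unrelated enzyme of the same step, averaged 17.1 FPKM in shCtrl and 21.1 FPKM in shHOXB13 and was not called (adjusted p = 0.16), nor was it in the drug series (20.1 and 16.3 FPKM, adjusted p = 0.058). SOAT1 (chromosome 1, 179293714 to 179358680, plus strand) fell from 10.5 and 9.62 FPKM to 5.36 and 4.84 FPKM (log2 fold change -0.97, SE 0.18, adjusted p = 0.0011). The drug series showed the same direction, and SOAT1 fell from 13.0, 14.5 and 14.1 FPKM to 8.31, 9.17 and 9.08 FPKM (log2 fold change -0.64, SE 0.11, adjusted p = 0.00042). For DGAT1 and SOAT1 the groups did not overlap in either series.

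Among the AGPAT enzymes, which make phosphatidic acid, AGPAT3 was the member called in both series. AGPAT3 (chromosome 21, 43865223 to 43987592, plus strand) rose from 23.2 and 24.3 FPKM to 40.8 and 39.6 FPKM (log2 fold change 0.76, SE 0.16, adjusted p = 0.0026). Its DMSO libraries measured 31.7, 33.2 and 31.6 FPKM in shCtrl and 38.4, 39.7 and 36.8 FPKM in shHOXB13, a smaller step without overlap (0.25, SE 0.06, adjusted p = 0.0031). AGPAT5, a mitochondrial isoform, fell in the drug series from 12.7, 12.1 and 12.8 FPKM to 5.43, 5.45 and 5.87 FPKM (log2 fold change -1.16, SE 0.08, adjusted p = 2.6e-07). In the knockdown series AGPAT5 measured 9.21 and 9.54 FPKM in shCtrl and 9.29 and 8.03 FPKM in shHOXB13, and the groups overlapped. AGPAT2 also fell in the drug series alone, from 24.2, 23.2 and 19.3 FPKM to 12.8, 15.5 and 14.7 FPKM (-0.63, SE 0.12, adjusted p = 0.0007). That call was lost under median-of-ratios scaling (-0.29, adjusted p = 0.08). AGPAT1 averaged 4.45 and 4.18 FPKM in the knockdown series and was not called in either.

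Lipolysis genes with called changes rose, with the exception of an inhibitor. Of the 8 tested, 4 rose and 0 fell in the knockdown series (8.45% and 30.8% of all genes), and 4 rose and 1 fell in the drug series (15.2% and 42.4% of all genes). PNPLA2 (chromosome 11, 818914 to 825573, plus strand) measured 59.0 and 68.8 FPKM in shCtrl and 114 and 115 FPKM in shHOXB13. With DMSO it measured 77.3, 60.8 and 61.7 FPKM in shCtrl and 108, 113 and 103 FPKM in shHOXB13. Each shHOXB13 library was above each shCtrl library, with log2 fold changes of 0.84 (SE 0.18, adjusted p = 0.003) and 0.70 (SE 0.12, adjusted p = 0.00041). MGLL (chromosome 3, 127689062 to 128052190, minus strand) rose from 5.04 and 4.89 FPKM to 10.6 and 11.2 FPKM (log2 fold change 1.12, SE 0.26, adjusted p = 0.0051). With DMSO, MGLL rose from 3.96, 4.96 and 5.13 FPKM to 16.5, 15.3 and 14.3 FPKM (log2 fold change 1.70, SE 0.12, adjusted p = 3.5e-07). MGLL thus showed the largest called rise among lipolysis members in either series.

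ABHD12 (chromosome 20, 25294742 to 25390835, minus strand), a lipase of lysophosphatidylserine and monoacylglycerol, rose from 52.9 and 59.9 FPKM to 109 and 115 FPKM (log2 fold change 1.00, SE 0.18, adjusted p = 0.0011). With DMSO the rise was smaller, from 54.3, 59.6 and 51.3 FPKM to 67.0, 74.9 and 72.2 FPKM (0.37, SE 0.07, adjusted p = 0.00077). ABHD6, another monoacylglycerol lipase, measured 7.35 and 8.84 FPKM in shCtrl and 13.9 and 14.8 FPKM in shHOXB13 (0.82, SE 0.25, adjusted p = 0.020). Its call was lost without shCtrl replicate 1 (0.69, adjusted p = 0.13), shHOXB13 replicate 1 (0.87, adjusted p = 0.061) or shHOXB13 replicate 2 (0.77, adjusted p = 0.099). In the drug series ABHD6 rose from 10.3, 10.2 and 8.86 FPKM to 11.4, 12.3 and 12.1 FPKM (0.28, SE 0.10, adjusted p = 0.024), a call lost without shCtrl DMSO replicate 3 (0.21, adjusted p = 0.10) or shHOXB13 DMSO replicate 2 (0.26, adjusted p = 0.072) or 3 (0.27, adjusted p = 0.060). ABHD5, the co-activator of PNPLA2, averaged 5.95 and 4.37 FPKM in the knockdown series (adjusted p = 0.18) and 5.85 and 5.48 FPKM in the drug series (adjusted p = 0.51). HILPDA, an inhibitor of PNPLA2, fell in the drug series from 7.97, 9.30 and 9.64 FPKM to 4.87, 7.29 and 5.63 FPKM (-0.60, SE 0.13, adjusted p = 0.002), a call lost under median-of-ratios scaling (-0.26, adjusted p = 0.099). In the knockdown series HILPDA measured 8.67 and 10.4 FPKM in shCtrl and 6.39 and 5.65 FPKM in shHOXB13, without overlap but not called (-0.65, SE 0.66, adjusted p = 0.47). That SE comes from the shared fit, and without shHOXB13+shp300/CBP replicate 1 the change was -0.65 (SE 0.13, adjusted p = 0.0028).

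**Figure D3:**
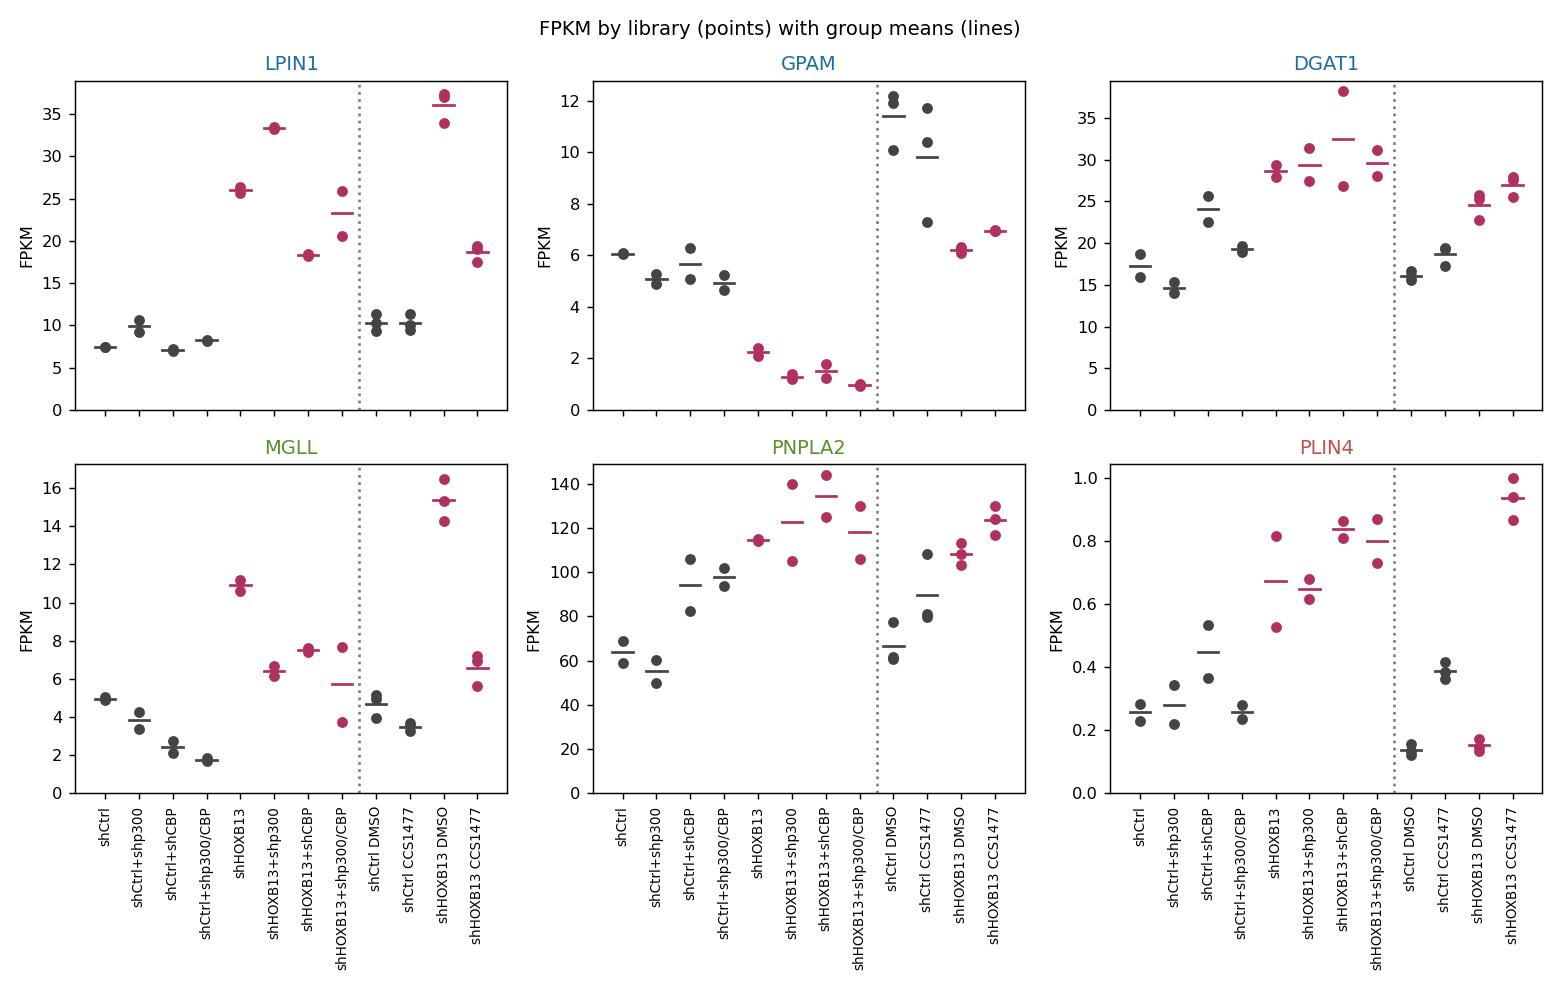
FPKM in every library (points) and group means (lines) of LPIN1, GPAM, DGAT1, MGLL, PNPLA2 and PLIN4 in the 12 groups, on linear axes that start at 0. LPIN1 stays between 7.03 and 11.3 FPKM in all shCtrl groups and lies between 17.5 and 37.4 FPKM in all shHOXB13 groups, and PLIN4 reaches its highest values, 0.867 to 1.00 FPKM, in shHOXB13 cells with CCS1477.

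The coat genes PLIN4, PLIN1 and FITM1 were called at low levels of RNA and FITM2 at a higher one. PLIN4 (chromosome 19, 4502192 to 4518486, minus strand) measured 0.285 and 0.231 FPKM in shCtrl and 0.818 and 0.529 FPKM in shHOXB13 (1.09, SE 0.29, adjusted p = 0.011). Its libraries held only 7 to 92 reads over the whole series, and the call was lost without shCtrl replicate 2 (0.98, adjusted p = 0.062) or shHOXB13 replicate 1 (0.82, adjusted p = 0.098). In the DMSO groups PLIN4 averaged 0.139 and 0.152 FPKM and was not called (adjusted p = 0.75). PLIN1, the perilipin of adipocytes, fell from 0.635 and 0.397 FPKM to 0.027 and 0.142 FPKM (-1.79, SE 0.43, adjusted p = 0.006), a call lost without shCtrl replicate 1 (-1.50, adjusted p = 0.061) or shHOXB13 replicate 1 (-1.32, adjusted p = 0.063). PLIN1 then averaged 0.333 and 0.111 FPKM in the DMSO groups (-1.02, adjusted p = 0.037), and the call was lost without shCtrl DMSO replicate 2 (-0.78, adjusted p = 0.13) or shHOXB13 DMSO replicate 1 (-1.07, adjusted p = 0.063) or 2 (-0.84, adjusted p = 0.12). FITM1 was called lower there too, from 1.60, 0.55 and 0.334 FPKM to 0, 0.373 and 0.172 FPKM, although the groups overlapped. Its call (-1.74, adjusted p = 0.04) was lost without shCtrl DMSO replicate 1 (-1.18, adjusted p = 0.15) or 2 (-1.87, adjusted p = 0.059) or shHOXB13 DMSO replicate 1 (-1.13, adjusted p = 0.17) or 3 (-1.85, adjusted p = 0.066). FITM2, which helps droplets to bud, rose in the DMSO groups from 17.0, 15.0 and 17.2 FPKM to 20.2, 19.5 and 22.4 FPKM (0.33, SE 0.09, adjusted p = 0.0096), while it averaged 6.81 and 4.89 FPKM in the knockdown series (adjusted p = 0.12). The abundant coat gene PLIN3 averaged 18.9 and 16.4 FPKM and then 26.2 and 29.4 FPKM, with overlapping groups in both series.

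Promoter sequence of 3 members is printed as examples. LPIN1 and PNPLA2 are a synthesis gene and a lipolysis gene among those raised in both series. AGPAT3, DGAT1, MGLL, ABHD6 and ABHD12 also rose in both and are not printed. PLIN4 is the member with the largest log2 change with CCS1477 in shHOXB13 cells. Each run holds the 250 bases before a transcription start in RefSeq on GRCh38.p14, read 5′ to 3′ on the strand of the gene, with motif matches in capitals. The windows are chr2:11677294-11677543 (plus strand) for LPIN1, which has other RefSeq starts farther into the gene, chr11:818664-818913 (plus strand) for PNPLA2 and chr19:4518487-4518736 (minus strand) for PLIN4.
LPIN1: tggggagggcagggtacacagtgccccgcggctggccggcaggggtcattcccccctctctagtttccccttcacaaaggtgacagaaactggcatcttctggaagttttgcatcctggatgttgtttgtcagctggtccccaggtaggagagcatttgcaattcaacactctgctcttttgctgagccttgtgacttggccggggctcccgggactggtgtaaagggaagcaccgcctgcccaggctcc
PNPLA2: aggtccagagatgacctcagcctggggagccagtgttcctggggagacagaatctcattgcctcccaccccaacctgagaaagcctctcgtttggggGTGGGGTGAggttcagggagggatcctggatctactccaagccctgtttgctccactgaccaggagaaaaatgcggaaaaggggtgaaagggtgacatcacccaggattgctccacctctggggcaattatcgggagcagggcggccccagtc
PLIN4: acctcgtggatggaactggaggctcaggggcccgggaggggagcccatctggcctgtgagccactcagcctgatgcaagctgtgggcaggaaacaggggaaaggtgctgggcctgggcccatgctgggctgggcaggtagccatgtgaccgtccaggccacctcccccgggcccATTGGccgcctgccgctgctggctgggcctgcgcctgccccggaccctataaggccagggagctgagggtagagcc
The motifs were searched on both strands. The PNPLA2 match, 153 bases before the start, is to TCACNCCAC on the reverse strand, a form of the sterol regulatory element. That motif was present in 0.883% of 35116 such windows of all genes and in 2 of the 50 windows of the 28 members found in the table, the other being of CIDEC. The PLIN4 match, 76 bases before the start, is to CCAAT, the NF-Y box, which 32.0% of all windows hold and 18 of the 50 member windows. The E-box CACGTG was in 6.34% of all windows and in 2 of the 50 member windows, of PLIN2 and LPIN2. The LPIN1 window held none of these 3 motifs, which says only that these letters are not in this window.

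Joint p300/CBP knockdown in shHOXB13 cells lowered 8 of the 29 tested members and raised 1, where it lowered 16.2% and raised 10.4% of all genes tested. The fall covered synthesis genes (GPAM, AGPAT3, DGAT2, SOAT1), the seipin gene BSCL2 and the monoacylglycerol hydrolases MGLL, ABHD6 and ABHD12, and LPIN3 was the member that rose. LPIN1, DGAT1 and PNPLA2, all raised by shHOXB13, were not called here: LPIN1 averaged 26.0 FPKM in shHOXB13 and 23.2 FPKM in shHOXB13+shp300/CBP (adjusted p = 0.32), DGAT1 28.6 and 29.6 FPKM (adjusted p = 0.88), and PNPLA2 114 and 118 FPKM (adjusted p = 0.91). The median log2 fold change of tested members was -0.28 against 0.00 for all genes. Rescaled to a common total, the split was 3 higher and 6 lower. Of the 8 luminal markers 7 fell in the same comparison, and their part in the members' changes was not tested.

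GPAM measured 2.09 and 2.39 FPKM in shHOXB13 and 0.935 and 1.01 FPKM in shHOXB13+shp300/CBP (-1.12, SE 0.19, adjusted p = 0.0015). LPIN3 rose from 6.14 and 7.03 FPKM to 18.0 and 13.0 FPKM (1.21, SE 0.19, adjusted p = 0.0011), and BSCL2 fell from 2.00 and 2.35 FPKM to 0.821 and 0.706 FPKM (-1.40, SE 0.24, adjusted p = 0.0018). In these 3 members the groups lay apart and the call held without any of the 4 libraries left out in turn, although BSCL2 held only 15 to 65 reads in them. Fitted on the compared groups alone, GPAM (adjusted p = 0.075), LPIN3 (adjusted p = 0.074) and BSCL2 (adjusted p = 0.067) were not called, nor was any other member. MGLL fell from 10.6 and 11.2 FPKM to 7.68 and 3.76 FPKM (-1.0, SE 0.26, adjusted p = 0.014), with its replicates differing by 1.01 on the log2 scale, and without replicate 1 of the joint knockdown the change was -1.51 (adjusted p = 0.00086). ABHD6 fell from 13.9 and 14.8 FPKM to 6.98 and 7.15 FPKM (-1.01, SE 0.25, adjusted p = 0.011), and ABHD12 fell from 109 and 115 FPKM to 82.4 and 65.4 FPKM (-0.61, SE 0.18, adjusted p = 0.026). SOAT1 fell from 5.36 and 4.84 FPKM to 3.35 and 2.73 FPKM (-0.73, SE 0.18, adjusted p = 0.0099). AGPAT3 fell from 40.8 and 39.6 FPKM to 21.3 and 28.3 FPKM (-0.71, SE 0.16, adjusted p = 0.0067), and DGAT2 from 21.4 and 20.8 FPKM to 11.2 and 15.2 FPKM (-0.69, SE 0.16, adjusted p = 0.0089). These groups did not overlap. Without replicate 1 of the joint knockdown, AGPAT3 (-0.50, adjusted p = 0.053) and DGAT2 (-0.46, adjusted p = 0.069) were no longer called. Without its replicate 2, MGLL (-0.50, adjusted p = 0.072), ABHD12 (-0.45, adjusted p = 0.14) and SOAT1 (-0.59, adjusted p = 0.052) were not. Leaving out shHOXB13 replicate 1 ended the calls of ABHD6 (-1.06, adjusted p = 0.051), ABHD12 (-0.65, adjusted p = 0.09), DGAT2 (-0.67, adjusted p = 0.059), MGLL (-1.04, adjusted p = 0.063) and SOAT1 (-0.66, adjusted p = 0.076). Leaving out shHOXB13 replicate 2 ended those of ABHD6 (-0.96, adjusted p = 0.064), ABHD12 (-0.58, adjusted p = 0.12) and MGLL (-0.96, adjusted p = 0.076).

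Single knockdowns gave fewer calls. With shp300 in shHOXB13 cells 0 members rose (3.5% of all genes) and 2 fell (3.44% of all genes). GPAM fell from 2.09 and 2.39 FPKM to 1.38 and 1.19 FPKM (-0.75, adjusted p = 0.036), and FITM2 from 5.84 and 3.95 FPKM to 1.92 and 2.31 FPKM (-1.15, adjusted p = 0.014). GPAM lost its call without any of the 4 libraries compared (adjusted p from 0.073 to 0.19), and FITM2 without shHOXB13 replicate 1 (-0.88, adjusted p = 0.14) or shHOXB13+shp300 replicate 1 (-1.03, adjusted p = 0.083) or 2 (-1.28, adjusted p = 0.052). Without shHOXB13+shp300/CBP replicate 1, which shares the fit, 6 members were called, 3 in each direction. With shCBP in shHOXB13 cells 0 members rose (0.402% of all genes) and 0 fell (1.13% of all genes) in limma, 5 had an unadjusted p under 0.05, and limma-voom on recovered reads called 2. Without shHOXB13+shp300/CBP replicate 1, LPIN1 (-0.51, adjusted p = 0.03) and SOAT1 (-0.70, adjusted p = 0.045) were called lower with shCBP. The hairpins parted on LPIN1, which measured 33.5 and 33.3 FPKM in shHOXB13+shp300 and 18.2 and 18.4 FPKM in shHOXB13+shCBP. The difference of 0.86 (SE 0.12, adjusted p = 0.0036) was the 1 member called higher with shp300 than with shCBP (1.86% of all genes), and 0 were called lower (0.718% of all genes). Without shHOXB13+shp300/CBP replicate 1, AGPAT5 was also called higher with shp300 (1.30, adjusted p = 0.0056).

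In shCtrl cells the joint knockdown raised 2 members (8.9% of all genes) and lowered 1 (9.4% of all genes). MGLL fell from 5.04 and 4.89 FPKM to 1.84 and 1.67 FPKM (-1.45, SE 0.26, adjusted p = 0.0029), without overlap. LPIN3 rose from 6.33 and 7.27 FPKM to 10.8 and 13.1 FPKM (0.80, adjusted p = 0.014), a call lost without shCtrl replicate 1 (0.70, adjusted p = 0.10) or shCtrl+shp300/CBP replicate 2 (0.66, adjusted p = 0.13). PNPLA2 rose from 59.0 and 68.8 FPKM to 102 and 93.8 FPKM (0.62, adjusted p = 0.031), a call lost without any of the 4 libraries compared (adjusted p from 0.063 to 0.19). With shp300 alone 0 members rose (1.05% of all genes) and 0 fell (2.19% of all genes) in limma, 1 had an unadjusted p under 0.05, and limma-voom called 0. Without shHOXB13+shp300/CBP replicate 1, LPIN1 was called higher with shp300 (0.40, adjusted p = 0.036). With shCBP alone 1 member rose (4.14% of all genes), AGPAT2 from 21.9 and 31.4 FPKM to 42.3 and 47.8 FPKM (0.78, adjusted p = 0.023), and 1 fell (8.09% of all genes), MGLL to 2.12 and 2.72 FPKM (-1.02, adjusted p = 0.026). AGPAT2 lost its call without shCtrl replicate 1 (0.52, adjusted p = 0.21) or shCtrl+shCBP replicate 1 (0.86, adjusted p = 0.088) or 2 (0.69, adjusted p = 0.10), and MGLL lost it without shCtrl replicate 1 (-1.0, adjusted p = 0.15) or 2 (-1.04, adjusted p = 0.088) or shCtrl+shCBP replicate 1 (-0.85, adjusted p = 0.19). Under median-of-ratios scaling shCBP gave 7 higher and 1 lower in shCtrl cells, counts that have no share of all genes under that scaling beside them.

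Whether the joint knockdown acted differently in shHOXB13 and shCtrl cells was tested as an interaction. It was called negative for 4 members (5.59% of all genes) and positive for 0 (2.54% of all genes). Without shHOXB13+shp300/CBP replicate 1 the calls were again negative only, and a member outside these 4 was among them. Without replicate 2 of that group, members were called in both directions, so the split by sign rests on that library. AGPAT3 measured 23.2 and 24.3 FPKM in shCtrl, 30.9 and 28.9 FPKM in shCtrl+shp300/CBP, 40.8 and 39.6 FPKM in shHOXB13 and 21.3 and 28.3 FPKM in shHOXB13+shp300/CBP (interaction -1.04, SE 0.22, adjusted p = 0.016). DGAT2 measured 15.9 and 18.2, then 24.4 and 20.8, then 21.4 and 20.8, then 11.2 and 15.2 FPKM in the same order (-1.09, SE 0.23, adjusted p = 0.015). Its level in the joint knockdown was above shCtrl in shCtrl cells and below shHOXB13 in shHOXB13 cells. ABHD6 measured 7.35 and 8.84, 11.4 and 8.52, 13.9 and 14.8, and 6.98 and 7.15 FPKM (-1.30, SE 0.35, adjusted p = 0.042), and BSCL2 1.76 and 2.18, 2.05 and 1.63, 2.00 and 2.35, and 0.821 and 0.706 FPKM (-1.30, SE 0.34, adjusted p = 0.038). None of the 4 calls held without every library: ABHD6 and BSCL2 lost theirs without any of the 8 libraries compared (adjusted p from 0.054 to 0.17 and from 0.054 to 0.15). AGPAT3 lost its call without shCtrl replicate 1 (-1.01, adjusted p = 0.058), shCtrl+shp300/CBP replicate 1 (-0.99, adjusted p = 0.072) or shHOXB13 replicate 1 (-1.02, adjusted p = 0.068) or 2 (-1.06, adjusted p = 0.053). DGAT2 lost its call without the same libraries (-1.0, adjusted p = 0.059; -0.98, adjusted p = 0.073; -1.07, adjusted p = 0.062; -1.11, adjusted p = 0.05).

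On the background of the joint knockdown, shHOXB13 against shCtrl raised 4 members (8.29% of all genes) and lowered 7 (34.8% of all genes). LPIN1 rose from 8.19 and 8.29 FPKM to 25.9 and 20.6 FPKM (1.47, adjusted p = 4.6e-06), and GPAM fell from 5.22 and 4.66 FPKM to 0.935 and 1.01 FPKM (-2.23, adjusted p = 6.2e-06). SOAT1 fell from 12.1 and 9.77 FPKM to 3.35 and 2.73 FPKM (-1.81, adjusted p = 1.5e-05). In each of the 3 the groups lay apart. MGLL (1.56, adjusted p = 0.0005), PLIN4 (1.34, adjusted p = 0.0028) and DGAT1 (0.61, adjusted p = 0.0084) rose too. LPIN2 (-1.21, adjusted p = 0.0045), DGAT2 (-0.79, adjusted p = 0.0021), PLIN2 (-1.33, adjusted p = 0.03), PLIN3 (-0.90, adjusted p = 0.0013) and BSCL2 (-1.16, adjusted p = 0.0022) fell. The DGAT1 call was lost without shCtrl+shp300/CBP replicate 1 (0.58, adjusted p = 0.055), and that of PLIN2 without shCtrl+shp300/CBP replicate 2 (-0.97, adjusted p = 0.20) or shHOXB13+shp300/CBP replicate 2 (-0.96, adjusted p = 0.17). PLIN2 held at most 19 reads in these libraries. The median of all genes was -0.35 here, and median-of-ratios scaling gave 9 higher and 4 lower. Under it DGAT2 (-0.30, adjusted p = 0.18), PLIN2 (-1.02, adjusted p = 0.096) and PLIN3 (-0.42, adjusted p = 0.055) were no longer called, and a common total ended the calls of DGAT2 (-0.47, adjusted p = 0.064) and PLIN2 (-1.53, adjusted p = 0.14). Without shHOXB13+shp300/CBP replicate 1, 4 members were higher and 10 lower, MOGAT2 (-1.88, adjusted p = 0.048), ABHD5 (-1.01, adjusted p = 0.005) and HILPDA (-0.47, adjusted p = 0.042) being added.

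CCS1477 moved 10 of 28 tested members in shHOXB13 cells, 7 upward (25% of members and 29.2% of all genes) and 3 downward (10.7% of members and 10.4% of all genes). The shares of members called were thus near those of all genes. The 3 that fell were LPIN1, MGLL and MOGAT2, and the AGPAT enzymes 1 to 3, LPIN2, DGAT2, PLIN4 and ABHD6 rose. LPIN1 fell from 37.4, 37.0 and 34.0 FPKM with DMSO to 19.1, 19.4 and 17.5 FPKM with CCS1477 (-0.95, SE 0.09, adjusted p = 1.1e-05). MGLL fell from 16.5, 15.3 and 14.3 FPKM to 7.21, 6.92 and 5.64 FPKM (-1.21, SE 0.12, adjusted p = 1.9e-05). Both genes, raised by shHOXB13, were thus lower in every CCS1477 library than in every DMSO library of shHOXB13 cells. PLIN4 rose from 0.173, 0.147 and 0.136 FPKM to 1.00, 0.940 and 0.867 FPKM (2.04, SE 0.19, adjusted p = 1.2e-05), which is 10 to 12 reads per library with DMSO and 64 to 92 with CCS1477. AGPAT2 rose from 12.8, 15.5 and 14.7 FPKM to 25.9, 30.4 and 31.0 FPKM (1.02, SE 0.12, adjusted p = 5.1e-05). These 4 members lay apart in every library. DGAT1 (24.6 and 27.0 FPKM, adjusted p = 0.17), PNPLA2 (108 and 124 FPKM, adjusted p = 0.22) and GPAM (6.22 and 6.95 FPKM, adjusted p = 0.42) were not called. With the replicate number as a block in shCtrl cells, which changes the shared spread, PNPLA2 (0.20, adjusted p = 0.017) and LPIN3 (0.27, adjusted p = 0.024) were.

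The other rises were smaller. LPIN2 rose from 8.98, 9.95 and 8.29 FPKM to 13.1, 12.4 and 11.1 FPKM (0.42, SE 0.11, adjusted p = 0.0086), and DGAT2 from 14.2, 18.5 and 16.2 FPKM to 20.6, 21.9 and 23.5 FPKM (0.43, SE 0.13, adjusted p = 0.016). AGPAT1 rose from 5.59, 6.03 and 6.29 FPKM to 7.94, 7.07 and 7.81 FPKM (0.34, SE 0.09, adjusted p = 0.0072), AGPAT3 from 38.4, 39.7 and 36.8 FPKM to 46.6, 48.5 and 45.6 FPKM (0.29, SE 0.06, adjusted p = 0.002), and ABHD6 from 11.4, 12.3 and 12.1 FPKM to 15.2, 16.4 and 15.3 FPKM (0.39, SE 0.10, adjusted p = 0.0071). None of these groups overlapped. The median of all genes was 0.20 in this comparison, and median-of-ratios scaling, which brings it to 0.01, gave 2 higher and 5 lower. Under that scaling AGPAT1 (0.14), AGPAT3 (0.08), LPIN2 (0.21), DGAT2 (0.22) and ABHD6 (0.18) were no longer called, while LPIN1 (-1.16), MGLL (-1.42), AGPAT2 (0.81), PLIN4 (1.92) and MOGAT2 (-1.66) were. The 5 lower members also include some that the main fit did not call. MOGAT2, a monoacylglycerol acyltransferase of the intestine, averaged 0.817 and 0.253 FPKM (-1.46, adjusted p = 0.019), and its call was lost without shHOXB13 CCS1477 replicate 2 (-1.0, adjusted p = 0.078) or shHOXB13 DMSO replicate 1 (-1.30, adjusted p = 0.067) or 2 (-1.35, adjusted p = 0.061). DGAT2 lost its call without shHOXB13 CCS1477 replicate 3 (0.39, adjusted p = 0.062) or shHOXB13 DMSO replicate 1 (0.34, adjusted p = 0.07). Of the 8 luminal markers 6 fell with CCS1477 in shHOXB13 cells, and their part was not tested.

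In shCtrl cells CCS1477 raised 7 members (15.4% of all genes) and lowered 4 (9.91% of all genes). SOAT1 fell from 13.0, 14.5 and 14.1 FPKM to 7.58, 9.45 and 10.7 FPKM (-0.59, SE 0.11, adjusted p = 0.0027), and AGPAT5 from 12.7, 12.1 and 12.8 FPKM to 8.0, 9.27 and 8.87 FPKM (-0.52, SE 0.08, adjusted p = 0.00072). PLIN4 rose from 0.136, 0.122 and 0.158 FPKM to 0.384, 0.416 and 0.363 FPKM (1.03, SE 0.19, adjusted p = 0.0026). These groups did not overlap. LPIN3 (0.55, adjusted p = 0.003), PLIN3 (0.47, adjusted p = 0.0041), AGPAT1 (0.44, adjusted p = 0.0029), PNPLA2 (0.42, adjusted p = 0.026), LPIN2 (0.35, adjusted p = 0.035) and AGPAT3 (0.24, adjusted p = 0.0097) rose, and MGLL (-0.41, adjusted p = 0.03) and MOGAT2 (-1.66, adjusted p = 0.016) fell. LPIN1 averaged 10.3 FPKM in both groups (0.00, adjusted p = 0.99). With both shCtrl libraries numbered 1 left out, the count was again 7 higher and 4 lower, with PLIN1 called (-1.40, adjusted p = 0.034) and MOGAT2 not (-1.57, adjusted p = 0.056). With the replicate number as a block, DGAT1 was called as well (0.21, adjusted p = 0.033). The weaker calls each rested on single libraries: LPIN2 lost its call without any shCtrl DMSO library or CCS1477 replicate 2 or 3 (adjusted p from 0.05 to 0.12), and MGLL without replicate 2 or 3 of either group (adjusted p from 0.061 to 0.11). PNPLA2 lost its call without CCS1477 replicate 1 (0.28, adjusted p = 0.067) or DMSO replicate 2 (0.36, adjusted p = 0.091) or 3 (0.37, adjusted p = 0.088), and MOGAT2 without CCS1477 replicate 1 (-1.44, adjusted p = 0.052) or DMSO replicate 3 (-1.32, adjusted p = 0.065).

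The response to CCS1477 differed between shHOXB13 and shCtrl cells for 6 members, with a positive interaction for 4 (9.1% of all genes) and a negative one for 2 (4.15% of all genes). LPIN1 had the smallest adjusted p (-0.95, SE 0.13, adjusted p = 0.00084): it fell by 0.95 in shHOXB13 cells and averaged 10.3 FPKM with and without the drug in shCtrl cells. MGLL fell more in shHOXB13 than in shCtrl cells, where its libraries measured 3.96, 4.96 and 5.13 FPKM with DMSO and 3.69, 3.26 and 3.51 FPKM with CCS1477 (interaction -0.80, SE 0.17, adjusted p = 0.012). AGPAT2, which measured 24.2, 23.2 and 19.3 FPKM with DMSO and 30.7, 24.5 and 25.8 FPKM with CCS1477 in shCtrl cells, had an interaction of 0.74 (SE 0.17, adjusted p = 0.015). Its CCS1477 libraries overlapped between the backgrounds, while its DMSO libraries did not. SOAT1 fell in shCtrl cells and measured 8.31, 9.17 and 9.08 FPKM with DMSO and 9.04, 9.50 and 10.0 FPKM with CCS1477 in shHOXB13 cells (interaction 0.69, SE 0.16, adjusted p = 0.015). AGPAT5 likewise fell in shCtrl cells and measured 5.43, 5.45 and 5.87 FPKM with DMSO and 5.99, 5.60 and 5.41 FPKM in shHOXB13 cells with CCS1477 (interaction 0.55, SE 0.11, adjusted p = 0.01). PLIN4 rose in both backgrounds and more in shHOXB13 cells (interaction 1.01, SE 0.28, adjusted p = 0.033). The PLIN4 interaction was lost when any of 9 of the 12 libraries was left out (adjusted p from 0.05 to 0.087), namely any CCS1477 library, shCtrl DMSO replicate 3 or shHOXB13 DMSO replicate 2 or 3. It was also lost with values rescaled to a common total, a pseudocount of 0.01 FPKM, the replicate block over all groups and limma-voom on recovered reads. The other 5 interactions held without each of the 12 libraries. Without both shCtrl libraries numbered 1 the PLIN4 interaction was 1.01 (adjusted p = 0.06). With the replicate block in shCtrl cells GPAM (0.39, adjusted p = 0.038) and PLIN3 (-0.32, adjusted p = 0.045) were called as well. Of the 8 luminal markers 4 had a negative interaction here and 5 a negative one with shp300/CBP, and their part was not tested.

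**Figure D4:**
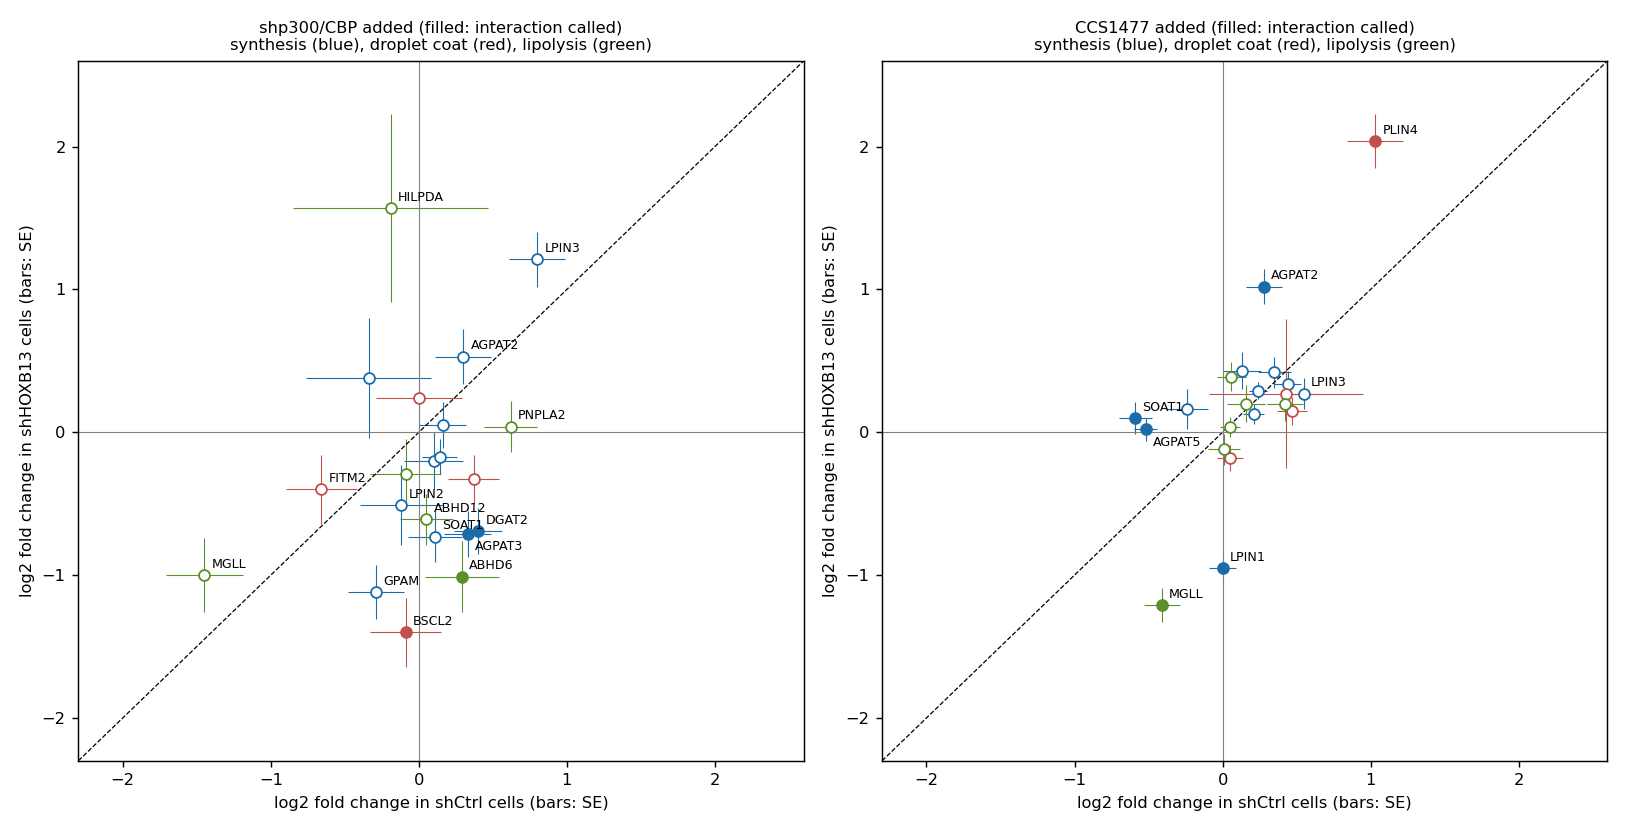
Log2 fold change with shp300/CBP (left) and with CCS1477 (right) in shCtrl cells (x axis) and in shHOXB13 cells (y axis), with SE bars, for the 20 members with a mean of at least 1 FPKM and PLIN4. Filled points had a called interaction; on the right LPIN1 and MGLL lie below the diagonal and PLIN4, AGPAT2, AGPAT5 and SOAT1 above it, and on the left AGPAT3, DGAT2, BSCL2 and ABHD6 lie below it.

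Among CCS1477-treated cells shHOXB13 raised 9 members (12% of all genes) and lowered 4 (30.9% of all genes). LPIN1 remained higher, at 19.1, 19.4 and 17.5 FPKM against 9.51, 11.3 and 10.1 FPKM in shCtrl cells (0.86, adjusted p = 1.4e-05), as did MGLL, at 7.21, 6.92 and 5.64 FPKM against 3.69, 3.26 and 3.51 FPKM (0.89, adjusted p = 0.00013). CCS1477 thus left both genes above their shCtrl level. DGAT1 (0.53, adjusted p = 0.00013), PNPLA2 (0.48, adjusted p = 0.008), ABHD6 (0.61, adjusted p = 0.00033), ABHD12 (0.37, adjusted p = 0.0015) and PLIN4 (1.09, adjusted p = 0.00086) were higher too, and AGPAT3 and LPIN3 completed the 9. AGPAT5 (-0.61, adjusted p = 9.7e-05), HILPDA (-0.57, adjusted p = 0.0046), GPAM (-0.47, adjusted p = 0.02) and PLIN2 (-1.12, adjusted p = 0.027, 1 to 10 reads per library) were lower. GPAM lost its call without shCtrl CCS1477 replicate 2 (-0.41, adjusted p = 0.07) or 3 (-0.33, adjusted p = 0.081) or any shHOXB13 CCS1477 library (adjusted p from 0.051 to 0.053). PLIN2 lost its call without shCtrl CCS1477 replicate 1 (-0.94, adjusted p = 0.087) or 3 (-1.03, adjusted p = 0.076) or shHOXB13 CCS1477 replicate 2 (-0.90, adjusted p = 0.10). Median-of-ratios scaling gave 11 higher and 2 lower, and a common total 9 and 2. Without both shCtrl libraries numbered 1, 9 were higher and 5 lower, with LPIN2 (-0.32, adjusted p = 0.02) and ABHD5 (-0.31, adjusted p = 0.028) called and PLIN2 (-0.94, adjusted p = 0.09) not.

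A further 40 genes of acylglycerol and droplet metabolism, 33 of which were tested, were listed beside the members. With shHOXB13, 8 of them rose and 9 fell in the knockdown series (8.45% and 30.8% of all genes) and 9 rose and 14 fell in the drug series (15.2% and 42.4% of all genes). The lysophospholipid acyltransferase LPCAT1 rose from 18.9 to 34.5 FPKM (0.87, adjusted p = 0.00041), while LPCAT4 fell from 4.22 to 2.13 FPKM (-0.96, adjusted p = 0.00017), the diacylglycerol kinase DGKD from 9.35 to 4.26 FPKM (-1.12, adjusted p = 0.00029) and the lysosomal acid lipase LIPA from 17.6 to 9.95 FPKM (-0.81, adjusted p = 0.00036). In shHOXB13 cells the joint p300/CBP knockdown raised 4 (10.4% of all genes) and lowered 11 (16.2% of all genes), among them GPAT4, an enzyme of the first acylation in the endoplasmic reticulum, from 23.2 to 11.6 FPKM (-1.0, adjusted p = 0.0013). CCS1477 raised 18 (29.2% of all genes) and lowered 1 (10.4% of all genes) in shHOXB13 cells. LPCAT4 rose with either treatment of shHOXB13 cells, from 2.13 to 8.18 FPKM with shp300/CBP (1.89, adjusted p = 1.2e-05) and from 1.51 to 5.43 FPKM with CCS1477 (1.82, adjusted p = 5.3e-05). Those comparisons come from separate series, and their values are set side by side only.

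The replicates of shHOXB13+shp300/CBP differed most at HILPDA and AGPAT5 among the members. HILPDA measured 53.9 FPKM (893 reads) in replicate 1 and 5.98 FPKM (69 reads) in replicate 2, a difference of 3.15 on the log2 scale, where its highest value in all other libraries was 10.8 FPKM. AGPAT5 measured 21.4 and 5.92 FPKM, LPIN2 4.16 and 1.98 FPKM, and MGLL 7.68 and 3.76 FPKM. The other members with a mean of at least 1 FPKM differed less than 2-fold. The HILPDA change against shHOXB13 was 1.57 (adjusted p = 0.10) with both replicates and -0.01 (adjusted p = 1) without replicate 1. Without that library, 14 members were called in shHOXB13 against shCtrl (9 higher, 5 lower), HILPDA and MOGAT2 being added. In shHOXB13+shp300/CBP against shHOXB13, 9 were then called (1 higher, 8 lower), with LPIN2 (-1.02, adjusted p = 0.013) and MOGAT2 in place of AGPAT3 and DGAT2.

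**Figure D5:**
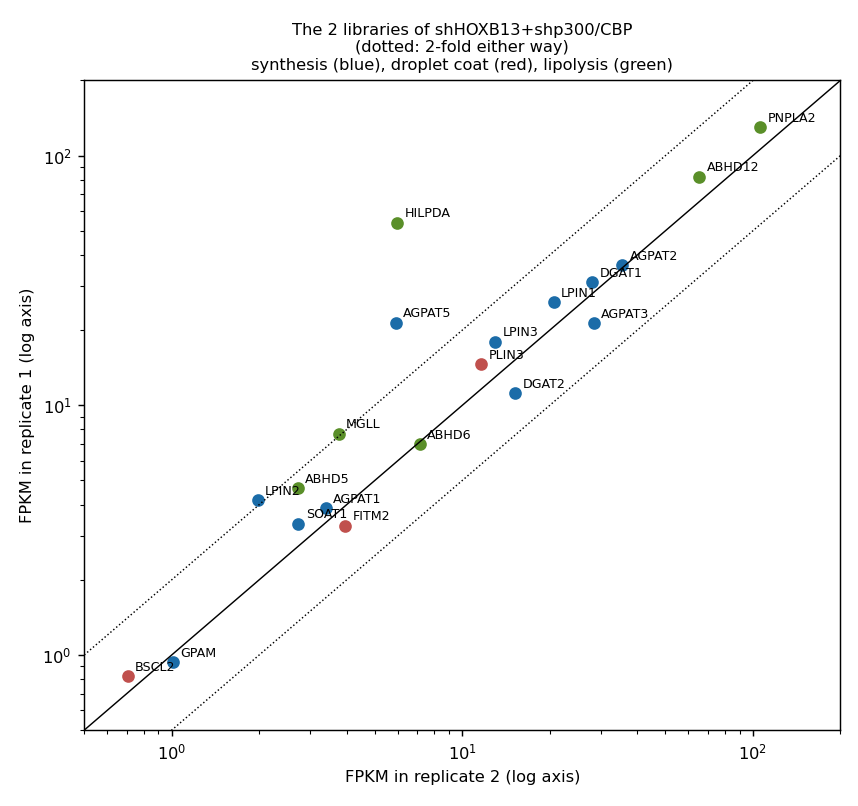
FPKM in replicate 2 (x axis) and replicate 1 (y axis) of shHOXB13+shp300/CBP for the 20 members with a mean of at least 1 FPKM, on log axes, with dotted lines at a 2-fold difference. HILPDA and AGPAT5 lie far outside the lines toward replicate 1, and LPIN2 and MGLL lie at the line.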

How the data were processed

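Poly(A) RNA of biological duplicates (knockdown series) or triplicates (drug series) was sequenced in pairs of reads. Per the labels and the study's methods, the authors aligned reads with STAR 2.6.0 to hg38 and deposited 1 FPKM value per gene and library, made from gene counts without strand, gene length and all mapped reads; no count table was used here. Of 26475 genes listed, 32 without a value were left out. Whole reads could be recovered for 20260 of 20267 genes (within 0.05 of a whole number) and served for depth and as an alternative test. Libraries are labelled as separate biological replicates, so p-values cover the spread between those cultures of 1 line and 1 hairpin per target.

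Values were tested as log2(FPKM + 0.1) with limma 3.58.1 in R 4.3.3 (moderated test with a mean-variance trend), 16 or 12 libraries per fit, 15 comparisons, and Benjamini-Hochberg adjustment over all genes tested. The interaction is the second treatment's effect in shHOXB13 minus that in shCtrl cells. Scripts were tested on simulated data. The members and gene lists were chosen with earlier results of these data known. Values in every library are given for the 8 called members of largest change with a mean of at least 1 FPKM in either group, in each of the 2 shHOXB13 comparisons and the 2 comparisons of shHOXB13+shp300/CBP and shHOXB13 CCS1477 with shHOXB13, and for members with a called interaction; up to 4 other genes per comparison were named by smallest p. Alternatives were another scaling (median of ratios, a common total), pseudocount, filter, a fold threshold, fits of the compared groups alone, limma-voom on recovered reads, a replicate block, and each replicate left out. Replicate numbers did not pair the libraries, except the 3 of shCtrl DMSO with those of shCtrl CCS1477, by correlated deviations; the block in these groups, and leaving out both shCtrl libraries numbered 1, were added after the data were seen. Coordinates are GENCODE 44 on GRCh38 and promoters RefSeq; the annotation version behind the deposited values is not given in the sources used here.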

Additional observations from a re-analysis of the deposited data

Results flagged for a closer look

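Members are listed here because the effect of a treatment differed between shHOXB13 and shCtrl cells by a test of the difference itself (the limma interaction, log2 scale). With shp300/CBP the difference was -1.04 for AGPAT3, -1.09 for DGAT2, -1.30 for BSCL2 and -1.30 for ABHD6, each lower in shHOXB13 cells. With CCS1477 it was 0.74 for AGPAT2, 0.55 for AGPAT5, 0.69 for SOAT1, 1.01 for PLIN4, -0.95 for LPIN1 and -0.80 for MGLL. No member was called in both interactions. Groups of 2 or 3 libraries were too small to test single libraries as outliers.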

How the results depend on the processing

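Counts of called members are given here where they moved by over 1.5 times. Fitting only the compared groups gave 0 for shp300/CBP, 0 for shp300 and 0 for shp300 against shCBP in shHOXB13 cells, 1 for shp300/CBP and 0 for shCBP in shCtrl cells, 6 for shHOXB13 under shp300/CBP, 2 for the knockdown interaction and 7 for CCS1477 in shCtrl cells. A pseudocount of 1 gave 1 for shp300 in shHOXB13 cells. A common total gave 5 for shp300 in shHOXB13 cells and 1 for shp300 and 7 for shCBP in shCtrl cells. A filter at 1 FPKM gave 1 and 4 for shCBP in shHOXB13 and shCtrl cells. Median-of-ratios scaling gave 1 and 8 for these, and 1 for shp300 in shCtrl cells. Limma-voom gave 2 and 7 for shCBP in shHOXB13 and shCtrl cells and 2 for shp300 against shCBP; for shHOXB13 it called 13 and 18 members in the knockdown and drug series. No filter and the replicate block each gave 2 for the knockdown interaction, and a fold of at least 1.5 gave 5 and 3 for CCS1477 in shHOXB13 and shCtrl cells and 6 for shHOXB13 under CCS1477. Causes were not tested, other than that fits of fewer groups use fewer libraries. LPIN2 in shHOXB13 DMSO against shCtrl DMSO turned from -0.30 to 0.05 under median-of-ratios scaling.

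With each library left out in turn, called members numbered 9 to 14 for shHOXB13 in the knockdown series. In shHOXB13 cells they numbered 4 to 9 for shp300/CBP, 0 to 6 for shp300, 0 to 2 for shCBP and 1 to 2 for shp300 against shCBP. In shCtrl cells they numbered 1 to 3, 0 to 1 for shp300 and 0 to 3 for shCBP. They numbered 10 to 14 for shHOXB13 under shp300/CBP and 0 to 5 for the knockdown interaction. The drug series gave 14 to 17 for shHOXB13, 8 to 10 and 7 to 10 for CCS1477 in shHOXB13 and shCtrl cells, 11 to 14 for shHOXB13 under CCS1477 and 5 to 6 for the interaction. Of 1671 recomputed values for called members, 1444 kept their direction and call, 226 kept their direction only and 1 reversed.

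Across all groups same-numbered replicates did not deviate together (median correlation -0.0216 in the knockdown and 0.0198 in the drug series, range -0.339 to 0.258 and -0.0805 to 0.665), other than the shCtrl groups of the drug series, where every pair did; the block in these ended no call. Over all groups the replicate block is an alternative only. Low reads limit PLIN1, PLIN2, PLIN4, FITM1, MOGAT2 and BSCL2.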

Other observations

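Stress and hypoxia genes outside the members were also high in shHOXB13+shp300/CBP replicate 1; they were chosen after their values were seen. VEGFA measured 222 FPKM in replicate 1 and 33.6 FPKM in replicate 2, with 15.8 to 76.0 FPKM in the other 26 libraries. BNIP3 measured 232 and 31.8 FPKM, against 30.9 to 105 FPKM elsewhere, and NDRG1 97.3 and 8.19 FPKM, against 12.8 to 41.5 FPKM. HMOX1 measured 338 and 18.5 FPKM, against 3.76 to 98.7 FPKM, and DDIT3 185 and 33.6 FPKM, against 8.41 to 75.7 FPKM. PDK1, by contrast, measured 8.65 and 1.41 FPKM, and its replicate 1 value lay inside the range of the other libraries, 1.60 to 16.7 FPKM. Replicate 2 lay below all 26 other libraries for PDK1, NDRG1 and SLC2A1 (6.93 FPKM, against 8.11 to 25.5 FPKM). The link of these values to HILPDA and AGPAT5 was not tested.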
